A study of Mus musculus with 6 samples.

Results

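The genes described here encode voltage-gated sodium, calcium and potassium channels, other potassium channels and their accessory subunits, measured by RNA-seq in the mouse forebrain at E14.5, an embryonic stage. Members were the protein-coding genes whose symbols begin with Kcn, Cacna, Cacnb, Cacng or Scn followed by a digit or letter, leaving out the Scnn and Scnm genes and 4 further genes (Kcne2, Kcnj8, Kcnj13 and Cacna2d2). This gave 130 of the 34866 genes in the table, 91 of them potassium channel genes and 39 calcium or sodium channel genes. Of the 130, 108 had enough counts to be tested, among 15216 tested genes in all. The other 22 had at most 60 estimated counts over all libraries and at most 0.940 CPM (counts scaled to a fixed library size) in any library.

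The study compared 3 forebrain libraries with 1 floxed and 1 null allele of Sap130 (f/-) with 3 from littermate controls that had 1 floxed and 1 wild-type allele (f/+). All 6 libraries are labelled as positive for Emx1-cre, which acts in progenitors of the dorsal telencephalon and their progeny, so that forebrain cells of other origin keep an intact floxed allele. The Sap130 protein belongs to the Sin3 complex, a histone deacetylase co-repressor. Its own level goes against the labels: it was 82.8, 84.9 and 84.4 CPM in the controls and 138, 124 and 124 CPM in the libraries labelled mutant. This is a log2 fold change of 0.61 (adjusted p = 0.0116, edgeR). No label says which exons are floxed, and transcripts lacking only those exons would still be counted. Every direction below is therefore that of the libraries as labelled.

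Voltage-gated channels open when the membrane depolarises: sodium channels carry the upstroke of the action potential, calcium channels couple firing to secretion and transcription, and potassium channels repolarise the cell. Each is built from pore-forming alpha subunits and accessory subunits that set its trafficking and gating. Inward rectifier and two-pore potassium channels hold the resting potential. In the embryonic cortex newborn neurons are only beginning to fire, and the set of channel genes in use still differs from that of the adult brain.

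Facts of the whole set of libraries bear on these values. The libraries held 20775583 to 25999874 estimated counts. CPM was scaled by trimmed mean of M-values (TMM). Titles begin with SPF-539 for replicate 1 of each group and with SPF-552 for the other 4 libraries. The meaning of these numbers is not given, so values within each are set beside the results. The summed level of 6 excitatory neuron markers was 1433 to 1491 CPM in controls, against 1035 to 1254 CPM in those labelled mutant. By log2 fold change 5 of these 6 markers lay below 0 and 1 above. Neurod2 and Neurod6, 2 of these markers and neuronal basic helix-loop-helix transcription factors, fell at an FDR of 0.05. Their group means went from 307 to 183 and from 287 to 154 CPM, a large part of the difference in the sum. Sums were higher, without overlap, for 6 inhibitory neuron markers (627 to 715 against 770.0 to 857 CPM), 8 radial glia markers (1997 to 2143 against 2242 to 2460.0 CPM), 6 diencephalon markers (319 to 357 against 396 to 490.3 CPM) and 6 Cajal-Retzius markers (369 to 378 against 413 to 568 CPM). All 6 inhibitory neuron and all 6 diencephalon markers had log2 fold changes above 0, while 1 radial glia and 1 Cajal-Retzius marker lay below 0. Reln held most of the Cajal-Retzius sum, and its groups overlapped. It was at 264.6, 286.0 and 281.1 CPM in controls and 460.1, 334.2 and 284.5 CPM in mutant replicates 1 to 3. No member of these 5 lists passed an FDR of 0.05 apart from Neurod2 and Neurod6, and no marker had 0 counts. In whole tissue, fewer cells of a type and less RNA per cell cannot be told apart, and the part of these markers in the channel values was not tested.

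The channel genes with the highest levels encoded accessory subunits. Levels are compared between genes only as CPM per kb of union exon length, mean ± SD over the 3 controls. Cacng4, a transmembrane AMPA receptor regulatory protein of the calcium channel gamma family, stood highest at 69.4 ± 2.27 CPM per kb. Cacng7 of the same family (44.5 ± 2.95) and the calcium channel beta subunit gene Cacnb3 (44.3 ± 1.39) came next and did not differ from each other beyond their spread. The sodium channel beta subunit gene Scn3b followed at 26.9 ± 1.42 CPM per kb. Cacng8 and Cacnb1 lay within their spread of each other, at 16.8 ± 0.565 and 16.4 ± 1.19 CPM per kb.

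Among pore-forming genes the levels in controls were lower. The highest were Kcna3 (a Kv1 delayed rectifier, 11.7 ± 1.42 CPM per kb) and Cacna1h (a T-type calcium channel, 11.3 ± 0.589). The two-pore channel gene Kcnk2 had 9.06 ± 0.564 CPM per kb. Scn3a, the sodium channel known for its embryonic expression, was the highest sodium channel alpha gene at 7.14 ± 0.498 CPM per kb, against 3.20 ± 0.148 for Scn2a. In none of these genes did the difference between the groups pass an FDR of 0.05.

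**Figure D1:**
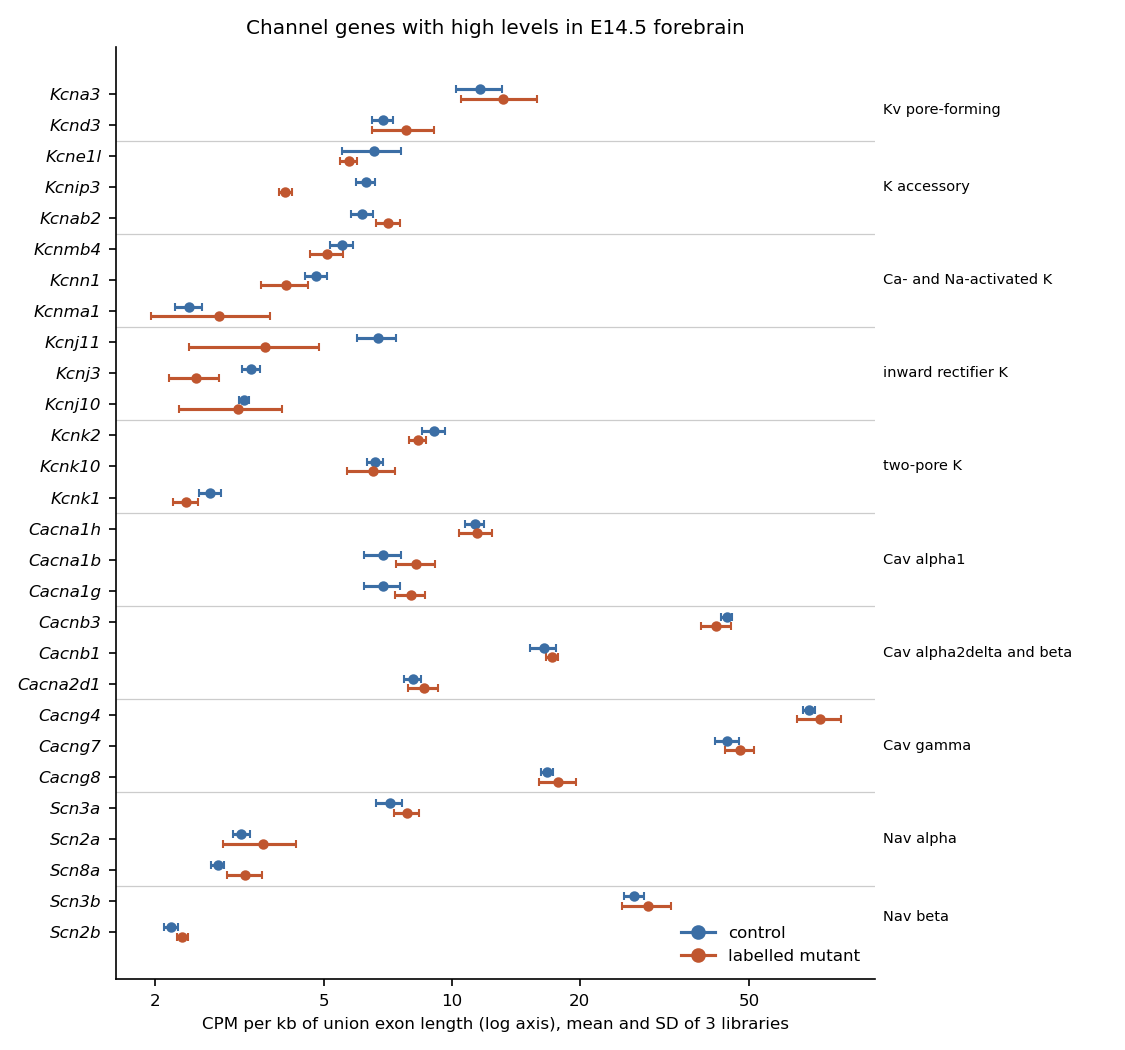
Channel genes with high control levels in each of 10 classes, as CPM per kb of union exon length on a log axis; points are means and bars SDs of 3 libraries, blue for control and orange for labelled mutant. Cacng4, Cacng7 and Cacnb3 stand highest, and the group means of Kcnip3 and Kcnj11 lie farthest apart.

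The comparison of libraries labelled mutant with controls asked which channel genes differ between f/- and f/+ forebrain, both labelled with Emx1-cre. By these labels the null or wild-type allele also differs between the groups in cells where Emx1-cre does not act. No member passed an FDR of 0.05 (quasi-likelihood test of edgeR, adjusted by Benjamini-Hochberg over all tested genes), where 21 genes or 0.138% of all tested genes passed. At an FDR of 0.1 the only member was Kcnip3, against 0.368% of all genes. At an unadjusted p under 0.05 there were 12 members (11.1%), where 9.60% of all genes had such a p. Limma-voom also called 0 members (0.0723% of all genes) and had 12 at an unadjusted p under 0.05 (9.72% of all genes), while DESeq2 called 3, which were Kcnip3, Kcnj11 and Kcnq3, against 1.51% of all genes. With a per-library offset for exon length 2 members passed (Kcnip3 and Kcnq3, against 0.447% of all genes), and with no filter on low counts the same 2 (0.570%). Upper-quartile scaling gave 1 (Kcnip3, 0.197%), the title number as a replicate block 2 (Kcnip3 and Kcnj11, 0.762%), and block and offset together 6 (2.67%). DESeq2 had 13 members at an unadjusted p under 0.05, where 8.88% of all genes had one. Groups did not overlap in 16 members (14.8%) and in 16.7% of all genes, so that both shares lay near those of all genes.

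Counts by direction were taken for potassium channel genes and for calcium and sodium channel genes. Of the 75 tested potassium channel genes, 7 were lower and 1 higher at an unadjusted p under 0.05, and 10 were lower and 3 higher without overlap of the groups. Of the 33 tested calcium and sodium channel genes, 0 were lower and 4 higher at that p, and 3 were higher and 0 lower without overlap. Over all genes 4.38% were lower and 5.22% higher at that p, and 8.49% were lower and 8.17% higher without overlap. The median log2 fold change was -0.08 for the potassium channel genes, 0.09 for the calcium and sodium channel genes, and -0.0003 over all tested genes. The difference between the 2 sets was not tested, and the second had the longer exons (median 8764 against 4587 bases). With a per-library offset for exon length, the medians were -0.065 and 0.070. Without mutant replicate 1, they were -0.13 and 0.003.

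**Figure D2:**
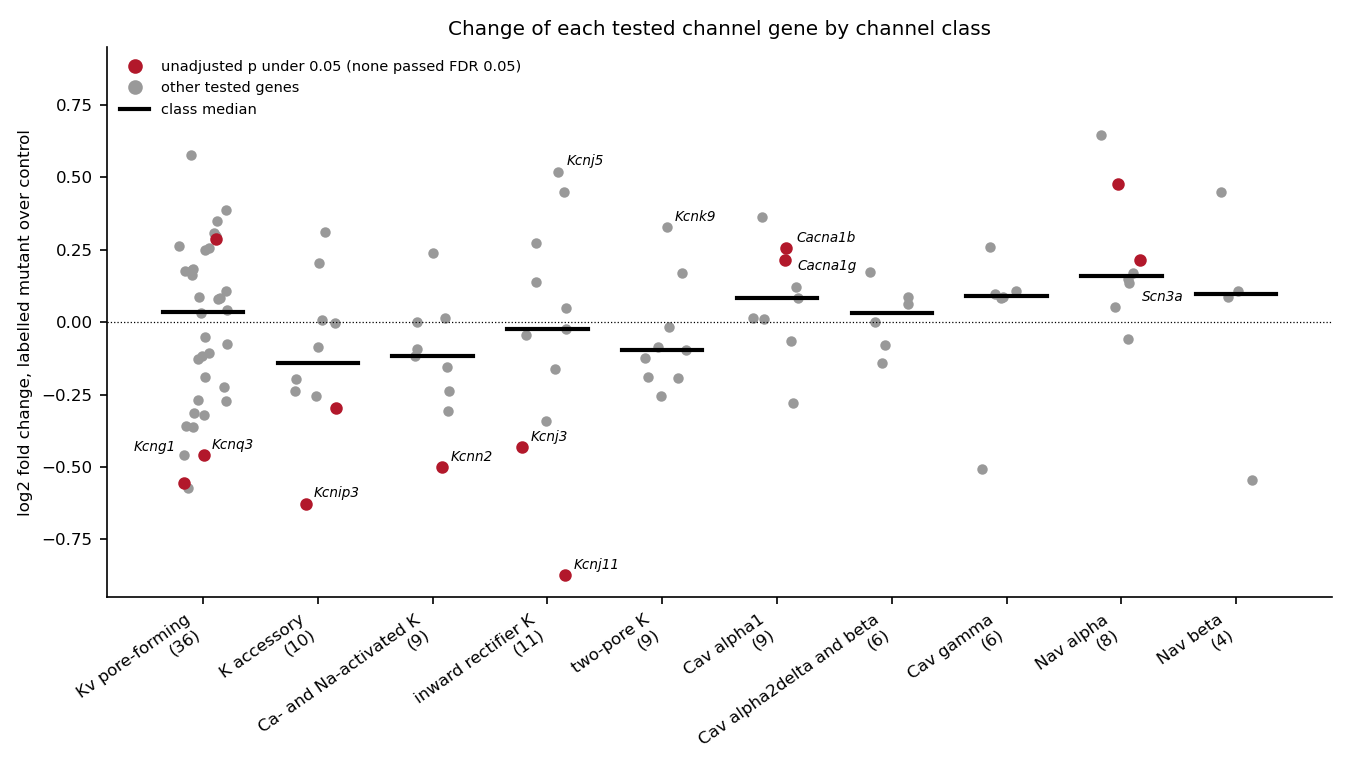
Log2 fold change of each of the 108 tested channel genes (labelled mutant over control, y axis) by channel class with the number tested in parentheses; red points have an unadjusted p under 0.05, black bars are class medians. The red points below 0 are all potassium channel genes and range from -0.30 (Kcnip1) to -0.87 (Kcnj11).

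Among the inward rectifiers, which pass potassium more readily into the cell than out of it, the median log2 fold change over 11 tested genes was -0.02, and 0.02 with the exon-length offset. Kcnj11, the Kir6.2 pore of the ATP-sensitive potassium channel (ENSMUSG00000096146, GRCm38 chromosome 7, 46093953 to 46100764, minus strand), was at 26.4, 25.8 and 21.7 CPM in control replicates 1 to 3. Its level was 18.5, 11.3 and 10.3 CPM in mutant replicates 1 to 3. Every control lay above every library labelled mutant, and the SPF-552 libraries labelled mutant were the lowest. Its log2 fold change was -0.87 (SE 0.19, adjusted p = 0.131, edgeR), the largest difference of any tested member. Within SPF-539 the log2 difference was -0.51, and within SPF-552 it was -1.12.

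Abcc8 encodes SUR1, the regulatory subunit that assembles with Kir6.2, and its gene lies beside Kcnj11 (chromosome 7, 46104523 to 46180033). It is no member and was looked up after the values of Kcnj11 were seen. Its level was 13.1, 13.4 and 15.5 CPM in controls and 9.21, 7.21 and 4.57 CPM in the libraries labelled mutant, again without overlap. The log2 fold change was -0.998 (SE 0.21, adjusted p = 0.109, edgeR).

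Kcnj3, the Kir3.1 subunit of G protein-gated channels (ENSMUSG00000026824, chromosome 2, 55435970 to 55598145, plus strand), was at 18.3, 17.9 and 16.6 CPM in controls and at 15.1, 12.2 and 11.9 CPM in the libraries labelled mutant. The groups did not overlap, with a log2 fold change of -0.43 (SE 0.13, adjusted p = 0.274, edgeR). Kcnj5, which encodes the Kir3.4 partner of Kir3.1, had the opposite sign at 0.52 (SE 0.25, adjusted p = 0.538, edgeR) from 3.87 ± 1.25 to 5.54 ± 1.001 CPM (SD, n = 3), and its groups overlapped. Kcnj10, the Kir4.1 channel of glia, was at 17.5 ± 0.503 and 17.0 ± 4.61 CPM. Mutant replicate 1 held the highest of its 6 values and the other libraries labelled mutant the lowest pair.

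Of 10 tested potassium channel accessory genes, 7 lay below 0, with a median log2 fold change of -0.14. Over all tested genes 50.1% lay below 0. The median of the accessory genes was -0.04 with the exon-length offset and -0.20 without mutant replicate 1. Kcnip3 (ENSMUSG00000079056, chromosome 2, 127456498 to 127522094, minus strand) encodes KChIP3, a calcium-binding subunit of Kv4 channels also known as the transcriptional repressor DREAM and as calsenilin. It was at 23.2, 22.6 and 20.9 CPM in controls and at 15, 14.0 and 14.2 CPM in the libraries labelled mutant. The groups were tight and well apart: the lowest control lay above the highest library labelled mutant. The log2 fold change was -0.63 (SE 0.11, adjusted p = 0.0565, edgeR), the smallest adjusted p of any member. The log2 difference was -0.63 within SPF-539 and -0.62 within SPF-552.

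Other accessory genes differed less. Kcnip1, which encodes another Kv4 partner, was lower without overlap, from 26.1 ± 2.58 to 21.2 ± 2.11 CPM (SD, n = 3; log2 fold change -0.30, adjusted p = 0.443, edgeR). Kcnab2, a Kv1 beta subunit gene, was higher without overlap, from 34.4 ± 1.99 to 39.5 ± 2.55 CPM (log2 fold change 0.20, adjusted p = 0.534, edgeR). Kcne1l, a single-span subunit gene, was at 10.1 ± 1.62 and 8.82 ± 0.392 CPM. The Kv4 pore genes with which KChIP proteins assemble had log2 fold changes of both signs, at 0.18 for Kcnd3, 0.08 for Kcnd2 and -0.32 for Kcnd1, the last at lower counts (control mean 3.94 CPM, labelled mutant mean 3.16 CPM).

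Promoter sequence is shown for Kcnip3 and Kcnj3, and none was available for Kcnj11, Kcnq3 or Kcng1. Kcnip3 and Kcnj3 were lower in the libraries labelled mutant, but neither passed an FDR of 0.05 by edgeR. Neurod2 and Neurod6, also lower, encode bHLH proteins, which bind E-boxes. A link between them and the channel genes was not tested. RefSeq windows on GRCm38.p6, from 250 bases before to 50 after a transcript start, were searched for Kcnip3 (3 windows) and Kcnj3 (1 window). The E-box forms searched for were CAGATG and CAGCTG, and other E-box forms were neither searched for nor marked. Windows holding either form are printed 5′ to 3′ on the gene's strand, with these forms in capitals. The Kcnip3 window is chr2:127522045-127522344 (minus strand) and the Kcnj3 window chr2:55435720-55436019 (plus strand).
Kcnip3: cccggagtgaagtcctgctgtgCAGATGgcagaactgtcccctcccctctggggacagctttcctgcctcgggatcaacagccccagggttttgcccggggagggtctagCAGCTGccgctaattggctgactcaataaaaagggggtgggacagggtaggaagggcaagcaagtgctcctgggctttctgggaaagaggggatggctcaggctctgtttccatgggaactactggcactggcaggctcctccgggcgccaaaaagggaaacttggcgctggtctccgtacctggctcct
Kcnj3: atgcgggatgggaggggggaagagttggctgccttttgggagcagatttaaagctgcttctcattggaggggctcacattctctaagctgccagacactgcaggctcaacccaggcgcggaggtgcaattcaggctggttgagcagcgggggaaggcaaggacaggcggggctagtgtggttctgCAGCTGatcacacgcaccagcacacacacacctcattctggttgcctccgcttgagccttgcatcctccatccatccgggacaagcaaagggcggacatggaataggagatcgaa
The Kcnip3 window holds 1 CAGATG and 1 CAGCTG, the other 2 Kcnip3 windows hold neither, and the Kcnj3 window holds 1 CAGCTG. On either strand CAGATG occurred in 17.2% of all 32851 RefSeq windows and in 16 of the 110 windows of 77 tested members. CAGCTG occurred in 16.3% of all windows and in 33 of the 110 of members. The GC box GGGCGG, whose end letters can be shared with an E-box, occurred in 35.7% and 45.5%, and the T-box motif GGTGTGA in 3.98% and 3.64%. These are matches of letters in short windows and do not show binding.

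The 36 tested pore-forming Kv genes had a median log2 fold change of 0.04, which was -0.14 without mutant replicate 1 and -0.03 with the exon-length offset. Kcnq3 encodes a subunit of the M-channel, a slow potassium channel that limits repetitive firing. The gene (ENSMUSG00000056258, chromosome 15, 65986387 to 66286642, minus strand) was at 82.1, 92.1 and 98.2 CPM in controls and 77.8, 62.1 and 58.1 CPM in the libraries labelled mutant. The groups did not overlap, though mutant replicate 1 lay close to control replicate 1 of the same title number. Its log2 fold change was -0.46 (SE 0.11, adjusted p = 0.173, edgeR), with -0.08 within SPF-539 and -0.66 within SPF-552.

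Kcng1, an electrically silent subunit gene (chromosome 2, 168260117 to 168281736, minus strand), was at 30.8, 23.0 and 21.8 CPM in controls and 26.4, 13.7 and 14.7 CPM in the libraries labelled mutant. Both SPF-539 libraries stood above the other libraries of their group, and the groups overlapped. Its log2 fold change was -0.46 (SE 0.24, adjusted p = 0.597, edgeR), -0.22 within SPF-539 and -0.65 within SPF-552.

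Kcnd3 and Kcna3 were at 65.9 ± 3.69 and 22.2 ± 2.70 CPM in controls and at 74.8 ± 12.4 and 25.1 ± 5.10 CPM in the libraries labelled mutant. In both genes mutant replicate 1 was the highest of the 6 libraries, and the log2 difference within SPF-552 was -0.01 for Kcnd3 and 0.02 for Kcna3.

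Calcium- and sodium-activated potassium channels shape the afterhyperpolarisation, and 7 of the 9 tested genes lay below 0, with a median log2 fold change of -0.12. This median was -0.08 with the exon-length offset and -0.05 without mutant replicate 1. Kcnn2, the SK2 channel, was at 18.2, 14.6 and 14.8 CPM in controls and 10.5, 11.7 and 11.4 CPM in the libraries labelled mutant. The groups did not overlap, and mutant replicate 1 was the lowest of the 6 libraries. The log2 fold change was -0.50 (SE 0.13, adjusted p = 0.204, edgeR), -0.79 within SPF-539 and -0.34 within SPF-552. Kcnn1, the SK1 channel, was lower without overlap, from 21.99 ± 1.32 to 18.7 ± 2.36 CPM (SD, n = 3; log2 fold change -0.24, adjusted p = 0.581, edgeR).

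Kcnma1, the large-conductance BK channel, was at 38.6, 44.3 and 40.0 CPM in controls and 65.4, 42.0 and 37.3 CPM in the libraries labelled mutant. Mutant replicate 1 alone was high, and the log2 fold change of 0.24 became -0.05 without it. The BK beta subunit gene Kcnmb4 was at 18.3 ± 1.11 and 16.9 ± 1.52 CPM. Two-pore channels carry the background potassium current. Their median log2 fold change was -0.10, and -0.07 with the exon-length offset, and 7 of 9 tested genes lay below 0. Of these Kcnk1 was lower without overlap (6.04 ± 0.346 to 5.30 ± 0.357 CPM, log2 fold change -0.19, adjusted p = 0.769, edgeR). Kcnk2 and Kcnk10 had log2 fold changes of -0.12 and -0.02, and Kcnk9 had 0.33 with a standard error of 0.22.

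Of the 9 tested calcium channel alpha1 genes, 7 lay above 0, with a median log2 fold change of 0.08. The median exon length of this class was 10140 bases, and its median log2 fold change was -0.05 with the exon-length offset, -0.03 without mutant replicate 1 and -0.04 within SPF-552. Cacna1b, the N-type channel of presynaptic terminals, was at 60.9, 70.6 and 74.5 CPM in controls and 89.3, 84.2 and 72.5 CPM in the libraries labelled mutant. Mutant replicate 3 lay below control replicate 3, so the groups overlapped (log2 fold change 0.26, SE 0.10, adjusted p = 0.446, edgeR). Cacna1g, a T-type channel, was at 69.8 ± 6.70 and 81.0 ± 6.74 CPM (SD, n = 3; log2 fold change 0.21, adjusted p = 0.507, edgeR). Cacna1h was at 111 ± 5.75 and 112 ± 10.02 CPM. Cacna1d, an L-type channel, was at 20.2 ± 0.916 and 16.7 ± 3.11 CPM (log2 fold change -0.28, adjusted p = 0.560, edgeR). Exons of Cacna1d and Cacna1h overlap annotated exons of another protein-coding gene, and the library kit marks no strand, so their counts are uncertain.

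Genes of the calcium channel beta, alpha2delta and gamma families showed small differences despite their high levels. Cacng4 was at 248 ± 8.12 and 263 ± 30.7 CPM, Cacnb3 at 178 ± 5.56 and 168 ± 13.7 CPM, and Cacnb1 at 74.5 ± 5.37 and 77.8 ± 2.53 CPM (SD, n = 3). Their log2 fold changes were 0.08, -0.08 and 0.06, with standard errors of 0.091, 0.081 and 0.082. The alpha2delta gene Cacna2d3 was higher without overlap (25.3 ± 2.54 to 28.5 ± 0.256 CPM, log2 fold change 0.17, adjusted p = 0.663, edgeR), as was Cacng3 at lower counts (log2 fold change 0.26, adjusted p = 0.702). Cacna2d1, Cacng7 and Cacng8 had log2 fold changes of 0.09, 0.10 and 0.09. Cacnb4 and Cacng5 lay below 0 at -0.14 and -0.51, the latter with a standard error of 0.26.

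Of the 8 tested sodium channel alpha genes, 7 lay above 0, and their median log2 fold change was 0.16. It was 0.07 with the exon-length offset and 0.10 without mutant replicate 1. Scn8a was at 44.3 ± 1.58 and 51.4 ± 4.86 CPM (SD, n = 3; log2 fold change 0.21, adjusted p = 0.491, edgeR), with overlap. Scn3a and Scn2a had log2 fold changes of 0.14 and 0.17, and mutant replicate 1 held the highest Scn2a value of the 6 libraries. Of the beta subunit genes Scn3b was at 147 ± 7.74 and 158 ± 20.99 CPM and Scn2b at 10.2 ± 0.399 and 10.8 ± 0.311 CPM. Scn4b lay under 1 CPM in every library.

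**Figure D3:**
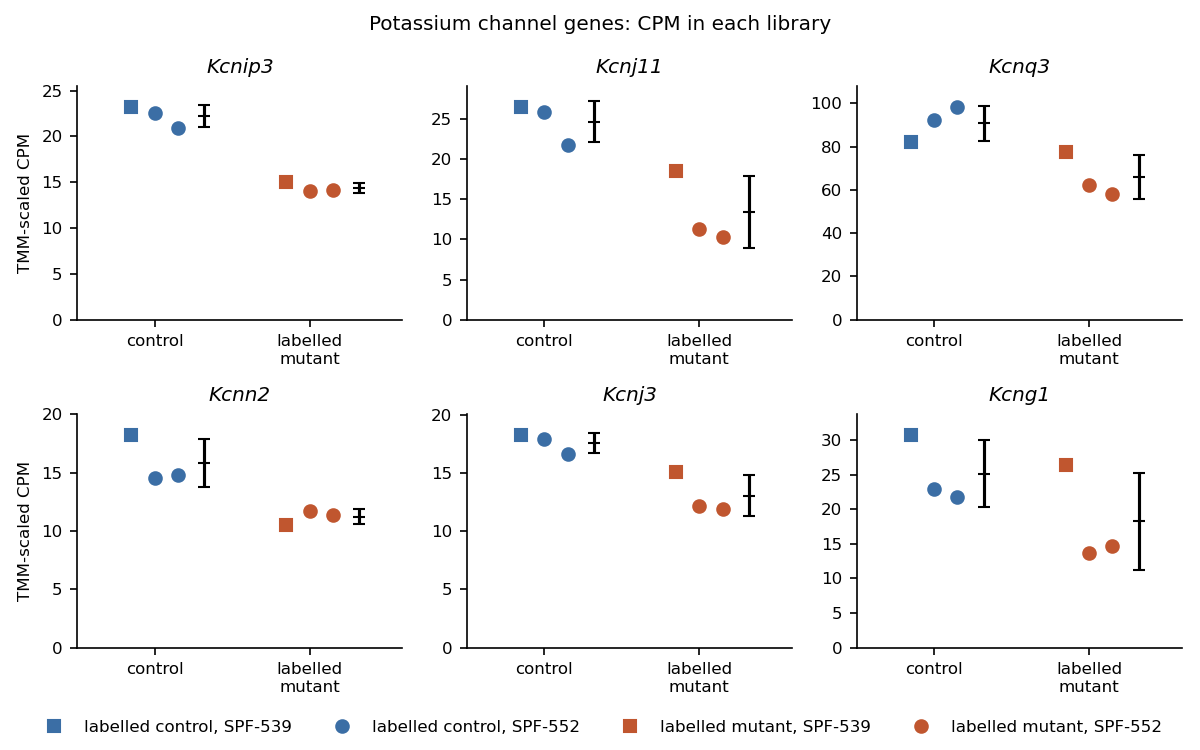
TMM-scaled CPM (y axis, from 0) of 6 potassium channel genes in each library; squares are SPF-539 and circles SPF-552, bars are mean and SD of 3 libraries. Groups do not overlap except for Kcng1, whose SPF-539 library labelled mutant (26.4 CPM) lies above control replicates 2 and 3 (23.0 and 21.8 CPM).

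The authors' deposited table lists 369 genes with an FDR under 0.1, which is 2.69% of the 13710 genes that its p-values and FDRs imply were tested. It holds 7 channel genes. Those listed as lower with an FDR under 0.05 (1.12% of genes) were 6, among them, with log2 fold changes from the authors' deposited table, Kcnj11 (-0.90), Kcnip3 (-0.61), Kcnn2 (-0.57), Kcng1 (-0.47) and Kcnq3 (-0.46). The 7 signs are those found here, as the same libraries were compared, and the table's statistic is a likelihood ratio. The likelihood-ratio test of edgeR, run here on the deposited counts, called 3 of these genes (Kcnip3, Kcnj11 and Kcnq3) and 0.986% of all genes.

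Exon length moved with the differences. Members had a median union exon length of 5067 bases, against 4444 for all tested genes, and 32 of the 108 tested members were longer than 8 kb. In mutant replicate 1 the median log2 deviation from the control mean was 0.21 for these 32 members and 0.18 for all genes over 8 kb. In mutant replicates 2 and 3 it was 0.05 and -0.13 for the members. Mutant replicate 1 held the highest of the 6 values in 45 of 108 tested members (41.7%) and in 25.7% of all genes. Over 8 kb it did so in 21 of 32 members and in 1408 of 2708 genes in all. Up to 8 kb it did so in 24 of 76 members and in 2498 of 12465 genes in all. In these shorter genes its median log2 deviation was 0.095 for members and -0.044 for all genes.

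The rank correlation of log2 fold change with exon length was 0.248 over 108 members and 0.250 over 15173 genes, as a description, since all genes share the same libraries. Without mutant replicate 1 it was 0.136 and 0.051. The median log2 fold change of the 32 long members was 0.08 over all libraries, -0.03 without mutant replicate 1, and -0.03 with an offset per library for exon length. Among the genes with the lowest adjusted p, Kcnq3 is the longest at 14708 bases, and with this offset its log2 fold change was -0.56 (adjusted p = 0.00967, edgeR). Kcnip3 (3546 bases) then had -0.59 (adjusted p = 0.0354) and Kcnj11 (3677 bases) -0.84 (adjusted p = 0.144).

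**Figure D4:**
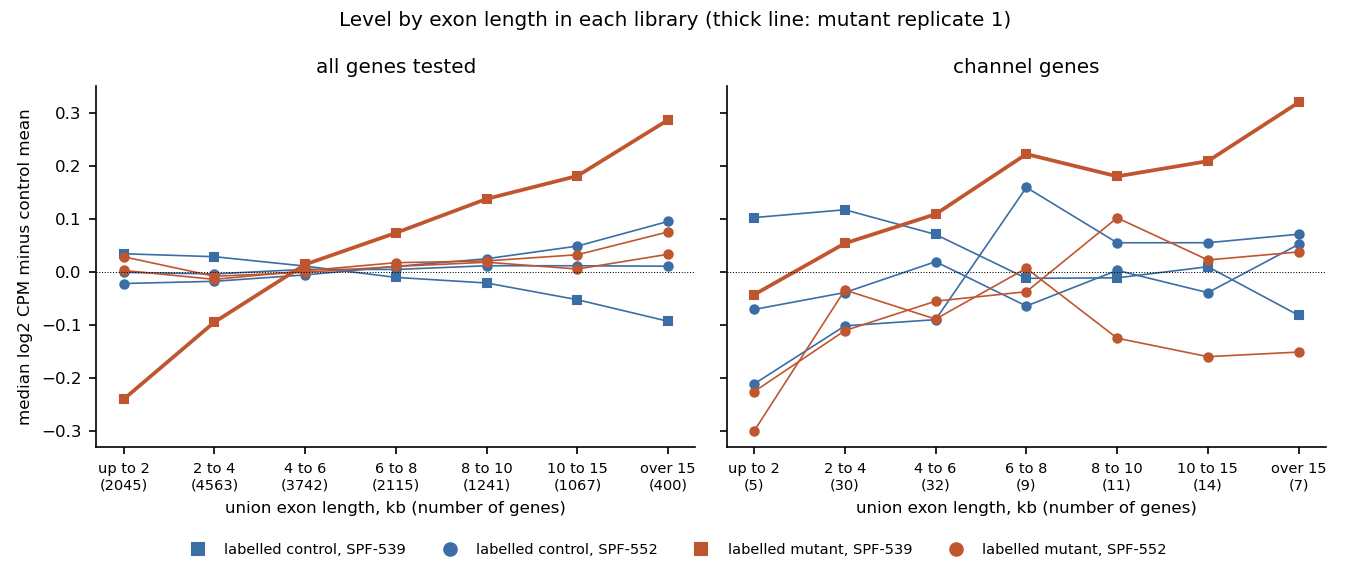
Median log2 CPM minus the control mean (y axis) by union exon length in kb (x axis, with the number of genes) in each library, for all tested genes and for channel genes; the thick line is mutant replicate 1. In all genes that line climbs from -0.24 to 0.29, and in channel genes over 8 kb it lies above the other 5 libraries.

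The title numbers gave different pictures for some members. The median log2 difference of labelled mutant over control was 0.08 over tested members within SPF-539 (1 library against 1) and -0.04 within SPF-552 (2 against 2). Some had much the same log2 difference in both, such as Kcnip3 (-0.63 and -0.62), Kcnip1 (-0.29 and -0.30) and Kcnab2 (0.23 and 0.19). Kcnq3 (-0.08 and -0.66) and Kcnma1 (0.76 and -0.09) did not. In SPF-552 alone 6 members passed an FDR of 0.05, against 3.90% of all genes: Kcnj11, Kcnq3, Kcng1, Kcnip3 and Kcnj3 were lower (2.19% of all genes) and Cacng7 higher (1.72%). Without mutant replicate 1 the 5 lower genes were called, against 2.17% of all genes, with log2 fold changes of -1.19, -0.60, -0.83, -0.66 and -0.55 in that order. Leaving out any other single library gave 0 calls among members, where only 0.0197% to 0.0591% of all genes were called.

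**Figure D5:**
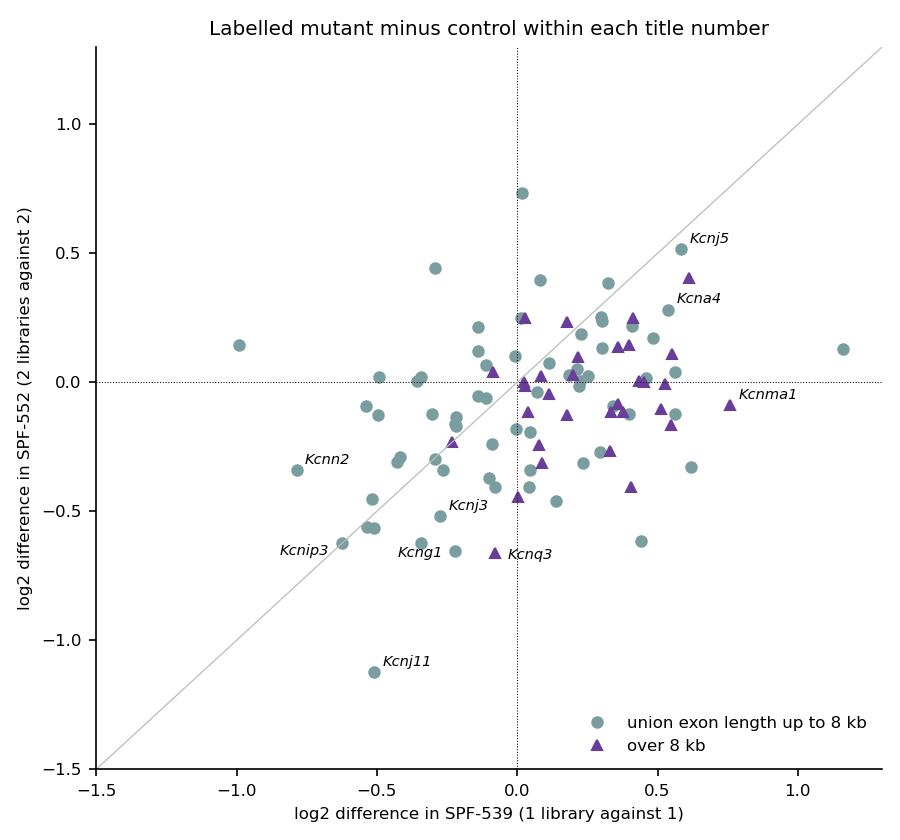
Log2 difference of labelled mutant over control within SPF-539 (x axis) and within SPF-552 (y axis) for the 99 tested channel genes whose mean reaches 1 CPM; the grey diagonal marks equality, triangles are genes over 8 kb. Kcnip3 lies on the diagonal, Kcnj11, Kcnq3 and Kcng1 lie below it, and most triangles lie to the right of 0.

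Genes of related function outside the channel families were read from lists. Of 14 genes of hyperpolarisation-activated (HCN), cyclic nucleotide-gated, leak, proton and endolysosomal channels, 13 were tested, and 0 passed an FDR of 0.05 by edgeR. At an unadjusted p under 0.05 Unc80, an auxiliary subunit of the sodium leak channel, and Tpcn1, an endolysosomal channel, were higher (log2 fold changes 0.36 and 0.22), and 0 were lower. Of 20 genes for channel partners, 19 were tested and 0 passed. At that p the Kv4 partner Dpp6 (0.19) and the axonal Kv1-clustering gene Cntnap2 (0.20) were higher, and Gem, a small GTPase that inhibits calcium channels, was lower (-0.66). Over all genes 5.22% were higher and 4.38% lower at that p. The adjusted p of the genes named from both lists ranged from 0.379 to 0.507 (edgeR). The medians of these lists were 0.07 and 0.09.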

How the data were processed

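Libraries were prepared from total forebrain RNA using the TruSeq v2 chemistry, per the labels' protocols, which marks no strand. According to the submitters' processing notes the build was mm10 (GRCm38) and the tools were edgeR 3.4.2, HTSeq 0.5.4p5 and TopHat2 2.0.9, whose roles the notes do not give. The authors deposited estimated counts per gene and library, not scaled between libraries. Between 22.7% and 24.9% of the values are not exactly whole, and which program made them was not given in the sources used here. A second table, the authors' deposited comparison, gives per listed gene a log2 fold change, the mean log2 CPM, a p-value with its FDR and a likelihood-ratio score.

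Symbols were taken from GENCODE M21 (GRCm38) by identifier with the version removed, which matched 99.19% of rows. Estimated counts were rounded to whole numbers and tested with edgeR 4.0.16 (R 4.3.3) after filterByExpr with a count minimum of 10 and a total minimum of 15, using TMM factors, a robust quasi-likelihood fit of 3 libraries labelled mutant against 3 controls, and Benjamini-Hochberg adjustment over all 15216 tested genes at an FDR of 0.05. Over all genes the biological coefficient of variation came to 12.3%, and members had a median standard error of 0.165 on the log2 scale. Union exon length is the number of bases in any annotated exon of a gene. The series calls the controls littermates but does not say which libraries share a litter or come from separate animals, so p-values measure the spread between these libraries. A single exact permutation test of 3 against 3 cannot go below 0.1. Replicates of a group differed by 4.77 to 27.5 in chi-square per gene, so none were copies.

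Genes named are Sap130, every member called, the 3 with the smallest p and the 3 with the highest control CPM per kb in each of 10 classes, and those in the authors' deposited table. Some genes that this rule names are not reported here. Genes outside this rule were named after their values were seen: Abcc8, Kcnd1, Kcnd2, Kcna4 (in a figure only), and Neurod2, Neurod6, Unc80, Tpcn1, Dpp6, Cntnap2, Gem, Rcor2 and Sin3a from the lists. The members, classes and lists were chosen with earlier results of these data known. Alternatives were RLE, upper-quartile and library-total scaling, DESeq2 1.42.0, limma-voom (limma 3.58.1), edgeR's likelihood-ratio test, no filter on low counts, an FDR of 0.1, an exon-length offset per library, the title number as a replicate block, both together, only the SPF-552 libraries, and each library left out in turn. Marker lists for neurons, choroid plexus, pericytes, endothelium, microglia, meninges and erythroid cells had median log2 fold changes of -0.05, -0.11, -0.07, -0.02, 0.01, -0.05 and -0.05, and the summed CPM of the groups overlapped in each. The scripts were tested on simulated data. Figures were drawn with matplotlib 3.10.9.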

Additional observations from a re-analysis of the deposited data

How the results depend on the processing

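The count of channel genes at an FDR of 0.05, 0 in the reported fit, was the result that moved most. It was 3 with DESeq2 (1.51% of all genes), 3 with edgeR's likelihood-ratio test (0.986%) and 2 with the exon-length offset (0.447%). It was 2 without a filter on low counts (0.570%), 1 with upper-quartile scaling (Kcnip3, 0.197%), 1 at an FDR of 0.1 (0.368%), and 6 in SPF-552 alone (3.90%). RLE scaling (0.131%), library totals (0.197%) and limma-voom (0.0723%) gave 0. Leaving out mutant replicate 1 gave 5 (2.17%), and leaving out any other library gave 0 (0.0197% to 0.0591%). The share of all genes called thus moved as well. The title numbers cannot be shown to pair the libraries by design. On the first principal component, the main axis of variation between libraries, the SPF-539 libraries lay at -21.4 (control) and -33.8 (labelled mutant). All SPF-552 libraries lay at 11.8 to 15.7, so this axis separated the libraries by these numbers. The reported fit left them out. Deviations from the group means correlated at 0.04 to 0.19 between libraries of the same title number and at -0.10 to -0.12 otherwise. Such deviations cancel within each group, so these correlations are not independent. With the title number as a replicate block the count was 2 (Kcnip3 and Kcnj11), and with that replicate block and the exon-length offset it was 6 (Kcng1, Kcnip3, Kcnj11, Kcnj3, Kcnn2 and Kcnq3, against 2.67% of all genes). Adjusted p ranged over the alternatives from 0.000745 to 0.352 for Kcnip3, from 0.000107 to 0.528 for Kcnj11 and from 3.5e-05 to 0.639 for Kcnq3. Leaving out single libraries, the median log2 fold change ranged from -0.14 to 0.064 for Kv genes and from -0.17 to -0.047 for calcium- and sodium-activated potassium channel genes, and in SPF-552 alone that of two-pore genes was -0.16. Of the 31 genes named for their change, signs reversed for Kcnma1 in SPF-552 alone (-0.087) and without mutant replicate 1 (-0.047, where leaving out single libraries gave up to 0.39), and for Scn3b without mutant replicate 1 (-0.0081, up to 0.17); the cause was not tested. With a standard error of 0.165 at the median, small differences of single genes were not detectable with 3 libraries a group, and 22 members were too low to test.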

Other observations

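Of the 4 channel genes left out of the set, Cacna2d2, an alpha2delta subunit, was at 60.9, 65.1 and 69.0 CPM in controls and 76.2, 80.9 and 71.4 CPM in the libraries labelled mutant, without overlap (log2 fold change 0.23, adjusted p = 0.403, edgeR). Kcne2, which marks the choroid plexus, was at 14.53 ± 0.357 and 12.2 ± 0.741 CPM (SD, n = 3), also without overlap (log2 fold change -0.26, adjusted p = 0.527, edgeR). Kcnj8 of pericytes was at 9.18 ± 0.338 and 8.33 ± 0.917 CPM, and Kcnj13 of the choroid plexus at 1.41 ± 0.230 and 1.45 ± 0.496 CPM.

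Genes of the RE1-silencing machinery, which represses neuronal genes including channel genes in other cells, were read beside the members. Of 8 such genes 0 passed an FDR of 0.05 by edgeR, with 1 higher and 1 lower at an unadjusted p under 0.05. Over all genes 5.22% were higher and 4.38% lower at that p. Rcor2, a co-repressor, was at 204, 173 and 184 CPM in controls and 138, 144 and 143 CPM in the libraries labelled mutant (log2 fold change -0.40, adjusted p = 0.101, edgeR). Sin3a, the scaffold of the complex that holds Sap130, was at 100.7, 97.8 and 107 CPM in controls and 145, 127 and 130 CPM in the libraries labelled mutant (log2 fold change 0.40, adjusted p = 0.102, edgeR). The groups did not overlap for either gene. Of the 8 genes 3 were higher and 1 lower without overlap, against 8.17% and 8.49% of all genes. With the title number as a replicate block 1 of the 8 genes was called higher and 1 lower, against 0.250% and 0.513% of all genes.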
